A study of Mus musculus with 100 samples.

Results

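The loci described here are those of 10 genes of extracellular matrix breakdown and ectodomain shedding: the matrix metalloproteinases Mmp8, Mmp12, Mmp13, Mmp14 and Mmp19, the tissue inhibitors of metalloproteinases Timp1, Timp2 and Timp3, and the membrane proteases Adam17 and Adam8. They were picked by gene name out of 18524 genes, with earlier results of these data known, and no value decided which of their regions were used: every region assigned to one of them was kept in all 15 tables of ChIP-seq regions, which gave 448 regions of 610301. A site found in several tables counts once in each. Mmp12 had the most (122 regions), followed by Mmp13 (68), Timp2 (59), Adam17 (47), Mmp14 (41), Mmp8 (39), Mmp19 (38), Adam8 (15), Timp3 (12) and Timp1 (7). Regions carry the gene with the nearest annotated start site, so a region named after Mmp13 has not been shown to act on Mmp13.

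The series asked how corepressors and coactivators are placed on the genome when macrophages meet an inflammatory stimulus, and it holds ChIP-seq of 35 groups with 2 libraries each, 70 of the 100 samples; 30 input samples were not analysed here. Most groups are mouse bone marrow-derived macrophages, given vehicle (Veh) or Kdo2 lipid A (KLA), the active core of endotoxin and a TLR4 agonist. Where a label states a duration it is 6 h, other than for p300 with Veh, which is labelled 0 h, so that for p300 KLA at 6 h was set against 0 h. In wild type cells the antibodies were against NCoR, a nuclear receptor corepressor, HDAC3, the histone deacetylase that NCoR activates, p65, the transactivating subunit of NF-κB, Fosl2, an AP-1 protein, PU.1, the factor that sets up macrophage enhancers, PGC1b, a coactivator, ERK1, a MAP kinase, and p300, a histone acetyltransferase. For PGC1b and NCoR a further KLA group had the ERK inhibitor LY3214996 (ERKi_KLA), and PGC1b also had solvent groups (DMSO_Veh and DMSO_KLA). H3K27ac, a histone mark of active enhancers and promoters, was measured in wild type cells with DMSO_Veh, DMSO_KLA or KLA with the HDAC3 inhibitor RGFP966 (RGFP966_KLA). The same mark was measured in NCoR flox/flox cells (labelled WT) against NCoR flox/flox LysMCre cells (NKO), and in PGC1b flox/flox against PGC1b flox/flox LysMCre cells, each with Veh and with KLA. LysMCre expresses Cre from the lysozyme gene of myeloid cells, and the floxed controls carry no Cre, so Cre itself goes with the deletion in both sets. Wild type cells labelled as bone marrow cells, studied with ERK1 and p300 antibodies at Day0 and at Day4 of osteoclast differentiation, complete the design. The replicate numbers do not say whether 2 libraries came from separate animals, so every p-value measures the spread between libraries, which may be technical.

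Matrix metalloproteinases are zinc endopeptidases that cut collagens, elastin and other matrix proteins, and TIMPs bind their catalytic site and block it. Macrophages are a major source of Mmp12, the macrophage elastase, Mmp8 and Mmp13 are collagenases, of which Mmp8 is best known from neutrophils, and Mmp14 stays in the cell membrane and activates other metalloproteinases at the cell surface. Adam17 releases TNF and other membrane-bound ligands, and Adam8 is a related sheddase of leukocytes. In osteoclasts, which form from the same precursors as macrophages, matrix proteases take part in the removal of bone.

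Values are tags (mapped reads) in a region per 10000000 tags of the library (tags per 10 M). A region was called higher or lower where the edgeR quasi-likelihood test over all regions of its table gave an adjusted p under 0.05 with a change of more than 2-fold. Regions of the antibodies other than H3K27ac were peaks merged over the groups compared. A region with 0 tags in 1 group was thus listed only through the other group, and a region with a few tags there most likely was too. The direction of change of such a region was set by that listing. Its call describes the region and is no separate support. A call is named stable where it held under every alternative tried, that is TMM scaling, DESeq2, no filter, the replicate number as a block and the omission of each library in turn; 66 of the 178 member calls were stable, and 84 of the 178 held without each library. TMM is a scaling that sets the typical region to no change, and its counts stand beside the others because the median of all regions moved for several antibodies. Library totals ran from 4.30 to 21.5 M tags, with 4 libraries under 6 M. Both NCoR groups with Veh and KLA were counted in 2 tables, once beside ERKi_KLA. The shallowest library was replicate 1 of Fosl2 with KLA, in which 16.4% of tags fell in regions, against 32.3% in replicate 2. Promoters of 7 of 7 macrophage genes held an H3K27ac region in the tables with DMSO and with the PGC1b alleles, and 4 of 7 did so in the NCoR table, where Csf1r, Adgre1 and Lyz2 had none. No promoter of 10 genes of lymphocytes, granulocyte precursors, fibroblasts or epithelium held one in any of these tables. H3K27ac regions cannot show whether NCoR or PGC1b was deleted, and neither deletion was checked here.

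The central 200 bases of 10 regions on which the results turn (at the Mmp14 promoter, the 200 bases before the start) are given here in mm10, plus strand, because they are the sites that gained or lost factors. Capitals mark a match to 1 of 4 patterns searched on both strands: the AP-1 site TGANTCA, the PU.1 site GAGGAAGT, the interferon-response-like pair of GAAA separated by 2 bases of any kind, and the NF-κB consensus. The first 5 gained binding with KLA, the next 3 lost it, and the last 2 were the Timp2 region that gained p300 in osteoclast differentiation and a Timp3 region found with p300 after KLA.
Mmp8 upstream (chr9:7547580-7547779): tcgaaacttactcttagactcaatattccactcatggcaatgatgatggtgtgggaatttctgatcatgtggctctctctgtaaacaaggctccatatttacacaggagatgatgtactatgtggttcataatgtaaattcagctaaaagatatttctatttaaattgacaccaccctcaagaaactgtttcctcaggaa
Mmp14 promoter (chr14:54431398-54431597): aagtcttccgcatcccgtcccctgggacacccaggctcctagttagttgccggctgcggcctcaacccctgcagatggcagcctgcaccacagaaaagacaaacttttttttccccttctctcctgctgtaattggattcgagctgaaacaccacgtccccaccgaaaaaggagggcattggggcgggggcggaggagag
Mmp14 downstream flank (chr14:54442649-54442848): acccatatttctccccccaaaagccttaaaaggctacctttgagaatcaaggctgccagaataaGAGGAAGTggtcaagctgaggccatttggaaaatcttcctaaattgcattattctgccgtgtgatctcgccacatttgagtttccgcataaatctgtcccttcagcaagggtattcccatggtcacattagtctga
Adam17 intron 6 (chr12:21347003-21347202): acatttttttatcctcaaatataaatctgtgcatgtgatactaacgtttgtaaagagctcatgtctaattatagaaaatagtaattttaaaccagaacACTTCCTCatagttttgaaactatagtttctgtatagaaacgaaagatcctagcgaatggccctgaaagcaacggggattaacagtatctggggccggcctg
Timp1 upstream (chrX:20868258-20868457): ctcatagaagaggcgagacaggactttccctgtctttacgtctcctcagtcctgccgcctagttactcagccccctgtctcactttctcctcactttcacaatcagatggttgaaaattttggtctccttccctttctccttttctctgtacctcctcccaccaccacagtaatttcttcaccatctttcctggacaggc
Mmp12 intron 1 (chr9:7345558-7345757): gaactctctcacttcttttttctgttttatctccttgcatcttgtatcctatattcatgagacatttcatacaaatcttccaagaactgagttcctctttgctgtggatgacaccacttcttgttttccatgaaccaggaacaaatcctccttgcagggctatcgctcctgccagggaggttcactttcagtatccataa
Mmp13 upstream (chr9:7251050-7251249): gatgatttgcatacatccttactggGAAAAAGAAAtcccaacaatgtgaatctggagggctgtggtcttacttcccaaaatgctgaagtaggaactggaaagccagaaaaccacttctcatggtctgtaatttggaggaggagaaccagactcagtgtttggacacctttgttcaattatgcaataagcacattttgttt
Timp2 intron 1 (chr11:118353637-118353836): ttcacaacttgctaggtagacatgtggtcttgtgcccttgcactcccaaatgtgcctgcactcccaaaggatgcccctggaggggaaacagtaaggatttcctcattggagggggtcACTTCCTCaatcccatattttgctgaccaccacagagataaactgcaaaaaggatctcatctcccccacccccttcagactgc
Timp2 upstream (chr11:118365255-118365454): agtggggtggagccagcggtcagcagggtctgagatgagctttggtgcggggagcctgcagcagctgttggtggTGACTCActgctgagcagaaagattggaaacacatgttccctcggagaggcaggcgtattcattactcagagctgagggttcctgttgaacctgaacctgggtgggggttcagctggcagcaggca
Timp3 upstream (chr10:86251036-86251235): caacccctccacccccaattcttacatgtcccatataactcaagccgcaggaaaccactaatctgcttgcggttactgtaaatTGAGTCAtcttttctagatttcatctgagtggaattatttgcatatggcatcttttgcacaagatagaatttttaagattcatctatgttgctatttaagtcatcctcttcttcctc

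The Mmp8 upstream region lies between genes, 37338 bp from Mmp10 and 10650 bp before Mmp8. None of these windows overlapped an exon. The Mmp14 flank starts 193 bp past the end of Mmp14, with Lrp10 21289 bp further on. Timp1 and Timp3 overlap Syn1 and Syn3, which run on the other strand. Of the 10 windows, the AP-1 pattern was in those of Timp2 upstream and Timp3 upstream, and the PU.1 pattern was in those of the Mmp14 flank, Adam17 intron 6 and Timp2 intron 1. The GAAA pair was in the Mmp13 window. Among all p300 regions of the KLA experiment 23.1% held the AP-1 pattern in their central 200 bases, and 13 of the 49 member regions did. The PU.1 pattern was in 18.1% of all PU.1 regions and in 9 of 36 of the members. The NF-κB consensus was in 7.61% of all p65 regions and in 1 of 31 of the members, and the GAAA pair was in 4.42% of all PU.1 regions and in 1 of 36.

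With KLA the member regions split by gene, most gains lying at Mmp13, Mmp8, Mmp14, Timp1 and Adam17 and most losses at Mmp12 and Timp2. Over the 8 antibodies compared between KLA and Veh, all 5 tested Timp1 regions, 14 of 24 tested Mmp14 regions and 10 of 28 Mmp8 regions were called higher, and none of the regions of these 3 genes was called lower. Adam17 had 8 of 32 higher and Mmp19 had 2 of 22 higher, again with none lower. At Mmp12, 26 of 70 were called lower and 4 higher, and at Timp2 9 of 33 were lower and none higher. Mmp13 had 13 higher and 6 lower of 49. The few regions of Adam8 (0 higher and 2 lower of 4) and Timp3 (1 higher and 2 lower of 5) were split over antibodies. One site can be counted for several antibodies, so these counts describe the tables and not independent sites. Regions with 0 tags with Veh, such as that of p300 at the Timp1 promoter, were listed through KLA and could only be higher. Summed over the same 8 antibodies, 26.6% of all regions were called higher and 11.1% lower, so the shares of Adam17 and Mmp13 called higher lay near that of the tables. The map of changes by antibody shows the same split.

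**Figure D1:**
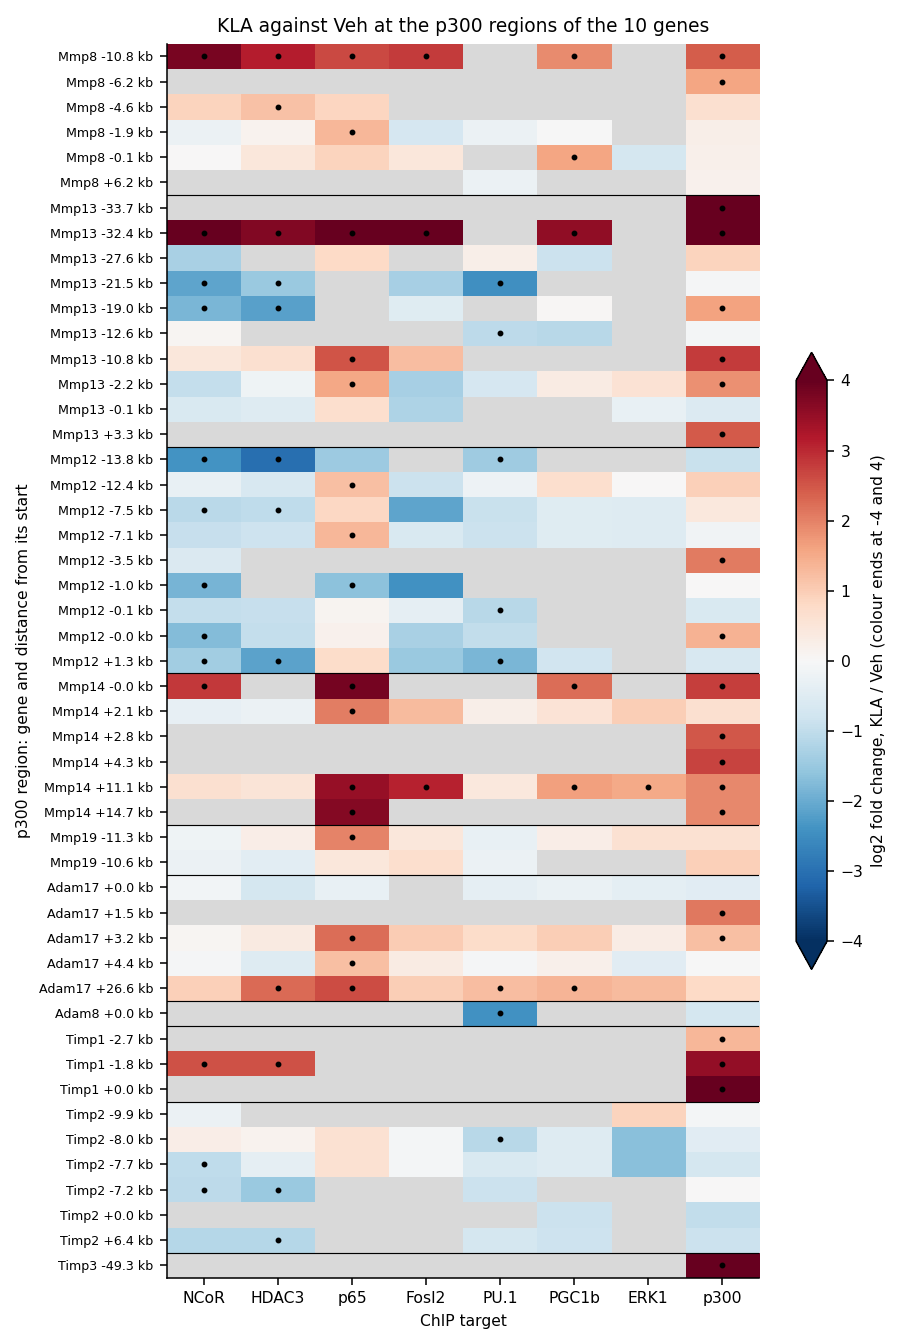
Log2 fold change with KLA against Veh (colour, which ends at -4 and 4) at the p300 regions of the 10 genes (rows, grouped by gene, distance to the start site in kb) for the 8 antibodies (columns), 2 libraries per group. A cell takes the region of that antibody whose centre lies nearest within 500 bp, so 1 region can stand in 2 rows; dots mark called regions and grey cells have no region. Red cells stand together at Mmp13 32.4 kb upstream, Mmp8 10.8 kb upstream and Mmp14 11.1 kb past its start, and blue cells for NCoR, HDAC3 and PU.1 at Mmp12.

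Read against all regions, a higher share of the members than of the whole table was called lower for NCoR, HDAC3, PU.1, p65, PGC1b and Fosl2. For p300 and ERK1 no member was called lower. These differences were not tested. For NCoR, 4 of 41 tested members were called higher and 12 lower, against 23.4% and 16.7% of all regions, and the members' median log2 fold change was -0.32 beside 0.10 over all regions. HDAC3 had 6 higher and 8 lower of 33 (27.5% and 11.3% of all), with medians of -0.36 and 0.27. For PU.1 they were 1 higher and 13 lower of 36 (4.53% and 21.7% of all), with medians of -0.76 and -0.41. With TMM the counts were 4 and 12 for NCoR, 5 and 11 for HDAC3, and 2 and 9 for PU.1, where TMM moved the median of all regions by -0.01, -0.28 and 0.41.

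For p65, 15 of 31 members were called higher and 4 lower, when 57.0% of all p65 regions were higher and 5.43% lower; the medians were 0.88 for the members and 1.46 for all regions. TMM moved the p65 median by -1.22 and left 7 members higher and 7 lower. Of the tags of the Veh libraries 12.7% and 14.4% lay in p65 regions, and of those of the KLA libraries 34.05% and 37.06%. The part of this share in the p65 calls was not tested. For p300, 21 of 49 members were higher and none lower (42.1% and 12.9% of all), with medians of 0.79 and 0.65; TMM shifted all regions by -0.51 and gave 17 higher and 8 lower. PGC1b had 6 higher and 5 lower of 37 (16.4% and 6.35% of all; 6 and 7 with TMM), Fosl2 had 3 and 3 of 30 (11.4% and 4.19%; 3 and 3 with TMM), and ERK1 had 1 and 0 of 15 (10.3% and 2.53%; 1 and 0 with TMM). The members' and all regions' medians were -0.21 and 0.06 for PGC1b, -0.63 and -0.14 for Fosl2, and 0.29 and 0.26 for ERK1. Without single libraries the number of members called moved by more than 1.5 times for NCoR, to 9 without KLA replicate 1 and to 8 without KLA replicate 2, and for HDAC3, to 7 without Veh replicate 1 and to 5 without Veh replicate 2. It moved to 9 for p65 without either KLA library, to 3 for PGC1b without either Veh library, and to 0 for ERK1 without replicate 2 of Veh or of KLA. For Fosl2 it was 0 without either Veh library and 13 without KLA replicate 2.

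Large gains were found at the collagenase gene Mmp13, most of them 32.4 kb upstream of its start. p65 was at 0 and 0 tags per 10 M with Veh and at 135.6 and 130.0 with KLA, which is at least 98.1-fold higher when 3 tags are set as the floor over the Veh group. This p65 region was listed only through KLA. NCoR was at 0 and 2.35 with Veh and at 58.3 and 47.0 with KLA, a ratio of 44.0 (95% counting interval 12.0 to 367, counting error only). HDAC3 rose from 2.91 and 3.87 to 45.7 and 45.7 (log2 fold change 3.70, SE 0.65, adjusted p = 1.49e-07). Thus corepressor and deacetylase both gained tags at a site where p65 gained them. The NCoR region held 2 tags over the Veh group and was most likely listed through KLA too. That Veh and KLA libraries did not overlap there is therefore no separate support. Fosl2 went from 4.23 and 3.15 to 125.7 and 128.6 (5.06, SE 1.03, adjusted p = 3.61e-05), a call lost without either Veh library, and PGC1b from 0.588 and 3.25 to 26.2 and 22.9 (3.54, SE 0.68, adjusted p = 0.00104). p300 went from 6.90 and 5.26 to 186 and 203.7 (4.98, SE 0.27, adjusted p = 4.93e-10). Calls of NCoR, HDAC3, p65, PGC1b and p300 at this site were stable. No PU.1 or ERK1 region was listed there.

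A second p300 region 33.7 kb upstream of Mmp13 held 0.627 and 0 tags per 10 M with Veh and 38.4 and 31.9 with KLA (ratio 110, interval 19.4 to 4370). Nearer to the gene p300 rose at 10.8 kb (11.3 and 13.8 to 81.3 and 93.0, log2 fold change 2.79, SE 0.30) and at 2.2 kb upstream (16.3 and 15.8 to 48.1 and 67.6, 1.84, SE 0.34), both stable calls. The Mmp13 promoter itself, 77 bp upstream, did not pass the test (72.7 and 51.9 with Veh, 42.0 and 43.2 with KLA, -0.55, adjusted p = 0.0807; -1.07 and called lower with TMM). In intron 4 of Mmp13 p300 was called higher as well (2.46, SE 0.57, adjusted p = 0.00133). p300 therefore rose upstream of Mmp13 and inside the gene, while the promoter change was not called with library totals.

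At 21.7 and 19.0 kb upstream of Mmp13 the corepressors went the other way. NCoR at 21.7 kb fell from 105.2 and 109.5 to 25.1 and 24.9 (log2 fold change -2.10, SE 0.30, adjusted p = 0.000423, stable), and HDAC3 from 116.4 and 123.3 to 24.6 and 68.5 (-1.48, SE 0.39), a call lost without Veh replicate 1 or 2 or KLA replicate 1. PU.1 at 21.4 kb fell from 40.3 and 44.8 to 5.23 and 10.2 (-2.44, SE 0.28, adjusted p = 5.16e-14, stable), and Fosl2 there (21.2 and 18.9 to 14 and 2.34) did not pass. All Veh libraries lay above all KLA libraries for NCoR, HDAC3 and PU.1. At 19.0 kb NCoR (60.9 and 80.0 to 21.9 and 18.0, -1.82, SE 0.36) and HDAC3 (76.4 and 79.6 to 18.2 and 15.8, -2.17, SE 0.45) fell while p300 rose from 8.15 and 17.1 to 33.3 and 43.2 (1.60, SE 0.42). The HDAC3 call was stable, the NCoR call was lost without KLA replicate 2, and the p300 call was lost with DESeq2 and without KLA replicate 2. Loss of corepressor and gain of p300 thus met at 1 Mmp13 region, and gain of both at another.

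Mmp8, the neutrophil collagenase, had its gain 10.8 kb upstream. NCoR rose from 5.97 and 1.18 to 42.1 and 59.5 (log2 fold change 3.80, SE 0.62, adjusted p = 0.000929), p65 from 10.5 and 7.46 to 60.1 and 53.4 (2.64, SE 0.44) and p300 from 10.7 and 9.20 to 45 and 61.6 (2.41, SE 0.38), all stable. HDAC3 (0 and 8.30 to 35.2 and 47.4, 3.15), Fosl2 (15.5 and 0 to 37.2 and 66.6, 2.80) and PGC1b (4.70 and 5.58 to 21.8 and 17.2, 1.88) were called higher too, but not stably: HDAC3 was lost with DESeq2 and without Veh replicate 1, Fosl2 with TMM, with the replicate block and without either Veh library, and PGC1b with DESeq2 and without either Veh library. In each of the 6 antibodies both KLA libraries lay above both Veh libraries. At the Mmp8 promoter PGC1b was called higher (11.2 and 12.6 to 49.2 and 24.6, 1.59, SE 0.46), a call lost without either Veh library or KLA replicate 1, and p300 (99.7 and 66.4 to 82.9 and 107.0, 0.19, adjusted p = 0.476) and NCoR (41.8 and 77.7 to 59.9 and 62.3, 0.03) overlapped between the groups.

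**Figure D2:**
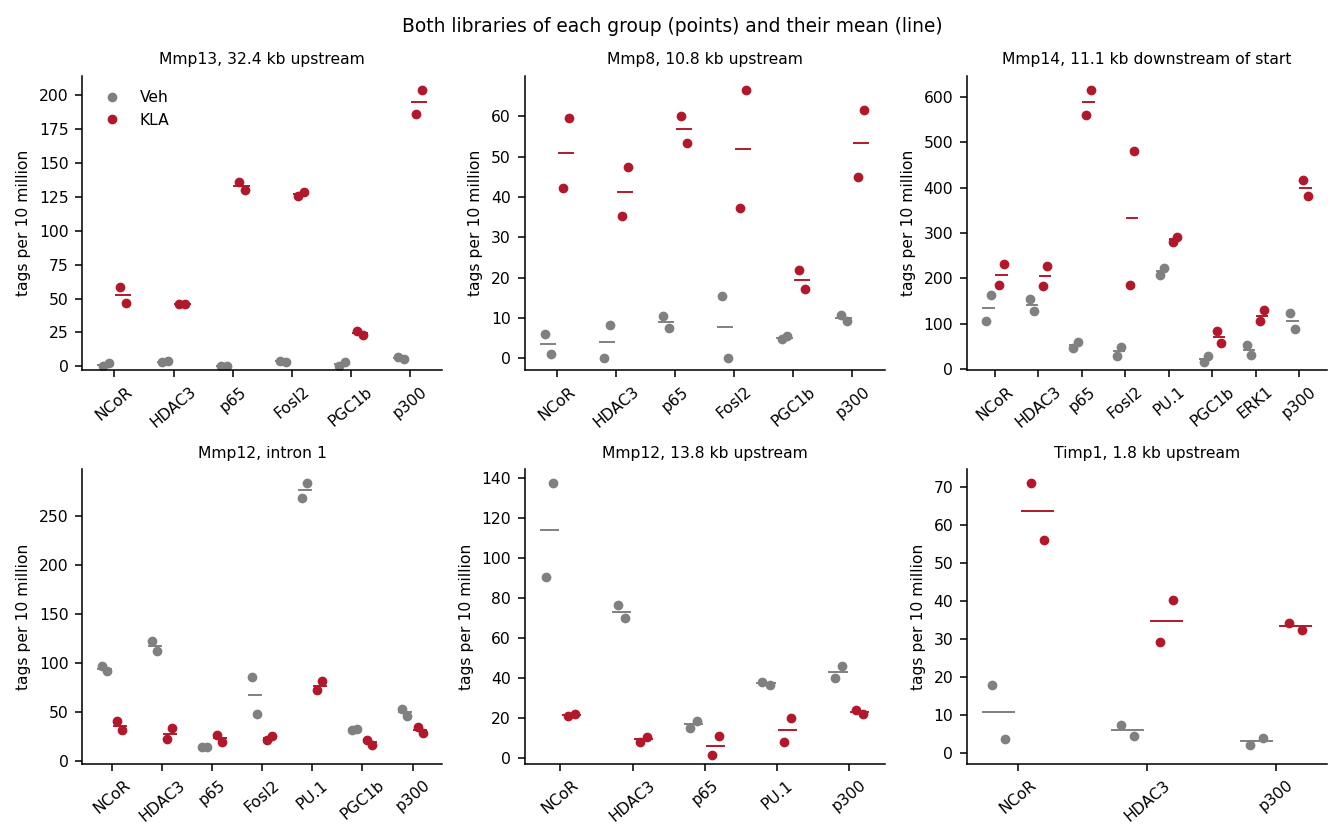
Tags per 10 M (vertical axes, each panel on its own linear scale) at 6 member regions for each antibody with a region there; points are single libraries, 2 per group, grey for Veh and red for KLA, and lines are means. At Mmp13 32.4 kb upstream every KLA point lies above every Veh point of its antibody, and in the panels of Mmp12 the points of NCoR, HDAC3 and PU.1 are ordered the other way.

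Mmp12, the macrophage elastase, lost corepressor and PU.1 over its upstream regions and its first intron. In the first intron, 1.3 kb past the start, PU.1 fell from 268.9 and 284.4 to 72.6 and 81.6 (log2 fold change -1.84, SE 0.11, adjusted p = 1.1e-33) and HDAC3 from 122.9 and 112.3 to 22.3 and 33.4 (-2.14, SE 0.41), both stable. NCoR there fell from 96.8 and 91.8 to 41.3 and 31.1 (-1.38, SE 0.30), a call lost without KLA replicate 2. p300 in this intron was 53.3 and 46.0 with Veh and 34.8 and 28.6 with KLA (-0.64, adjusted p = 0.0659; -1.16 and called with TMM). At 13.9 kb upstream NCoR fell from 90.8 and 137.7 to 21.1 and 22.1 (-2.40, SE 0.33) and HDAC3 from 76.4 and 70.2 to 8.21 and 10.5 (-3.01, SE 0.51), again stable. PU.1 at 13.8 kb upstream fell from 38.3 and 36.7 to 7.85 and 19.8 (-1.43, SE 0.26; lost without KLA replicate 1). In these 2 regions no Veh library overlapped a KLA library for NCoR, HDAC3 or PU.1.

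Not all Mmp12 regions moved so. At 12.4 kb upstream NCoR stayed uncalled (156.5 and 155.4 with Veh, 127.2 and 125.2 with KLA, log2 fold change -0.31, adjusted p = 0.236), and p300 there was 96.5 and 53.2 with Veh and 152.4 and 135.7 with KLA (0.94, adjusted p = 0.00208, under 2-fold). The p65 call at 12.4 kb (45.5 and 40.1 to 98.2 and 100.6, 1.21, SE 0.28) turned to -0.02 with TMM and was lost with DESeq2 and without either KLA library. At 7.1 kb upstream PU.1 (214.6 and 234.6 to 126.9 and 117.9, -0.87, SE 0.10) and NCoR (225.8 and 196.6 to 106.1 and 116.2, -0.92, SE 0.20) were lower by less than 2-fold. p300 rose at 3.5 kb upstream (6.27 and 5.26 to 26.6 and 22.7, 2.08, SE 0.50; lost without KLA replicate 1). The Mmp12 promoter, 81 bp upstream, lost PU.1 (151.5 and 150.6 to 64.8 and 74.6, -1.12, SE 0.13), a call that TMM (-0.70) and DESeq2 did not make.

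Mmp12 has a second annotated start inside the gene, from which the regions further along were measured. At this second start NCoR was called lower (44.2 and 82.4 to 19.4 and 18.7, -1.73, SE 0.41), a call lost without either KLA library. p300 was called higher there (1.38, SE 0.37, adjusted p = 0.00412), where TMM moved the median of all p300 regions by -0.51. Inside the Mmp12 transcript and just past its end, p65, Fosl2 and PGC1b fell as well. PGC1b held 11.8 and 17.2 tags per 10 M 7.1 kb past the second start with Veh and 0 and 0 with KLA, at least 13.1-fold lower with the floor of 3 tags over the KLA group. Fosl2 at 12.2 kb past the second start held 32.4 and 27.3 with Veh and 0 and 0 with KLA, at least 12.6-fold lower, and p65 at 3.8 kb past it held 14 and 18.6 with Veh and 0.668 and 0.684 with KLA (ratio 24, interval 6.19 to 206). Regions there with 0 tags with KLA were listed only through Veh and could only be lower. The p65 regions held 3 and 2 tags over the KLA group, and further PGC1b regions held 1 and 2. These were most likely listed through Veh as well. Of the regions more than 1.3 kb past the second start, 5 of 7 PGC1b, 3 of 3 Fosl2 and 2 of 2 p65 regions were called lower and none higher. Over all regions of these antibodies 6.35%, 4.19% and 5.43% were called lower. The direction of the member calls largely followed from the listing, so their counts describe the regions and are no separate support. With TMM 7 of 7, 3 of 3 and 2 of 2 were lower, against 9.13%, 9.68% and 21.3% of all regions. All these calls were lost without at least 1 library: the PGC1b call at 7.1 kb without Veh replicate 2, the other PGC1b calls and the Fosl2 calls without either Veh library, and the p65 calls without either KLA library. The replicate block ended the 3 Fosl2 calls and 1 of the PGC1b calls. In the PGC1b set with DMSO the 3 such regions were lower too, without a call, and the 1 PU.1 region (68.3 and 71.6 to 37.3 and 43.3, log2 fold change -0.79) was lower by less than 2-fold.

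**Figure D3:**
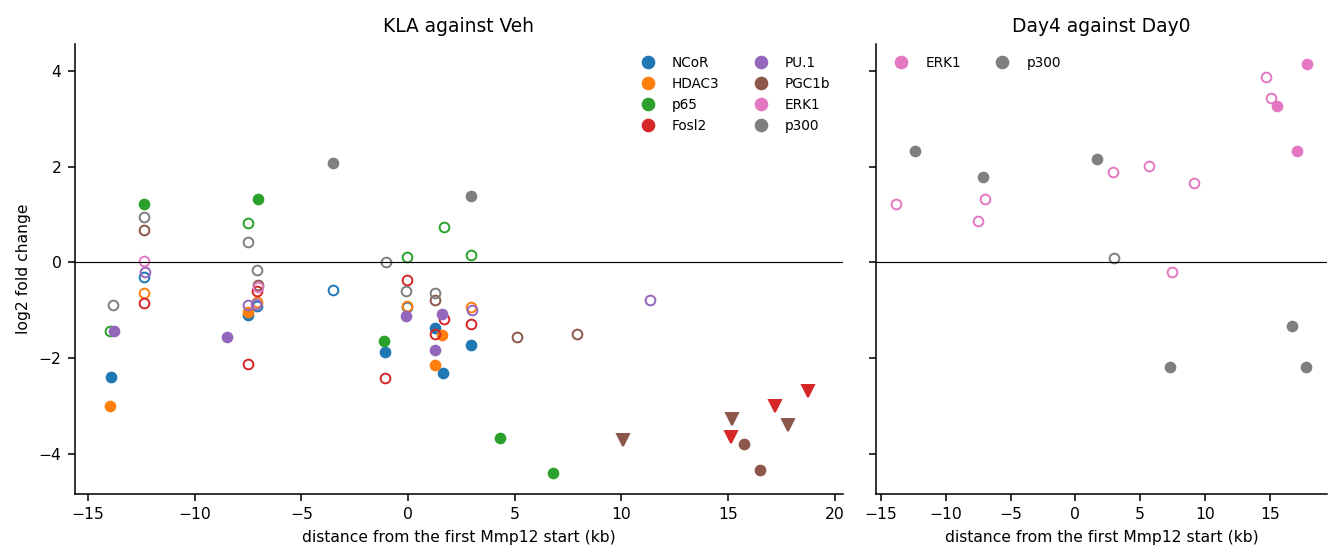
Log2 fold change (vertical axis) of each tested Mmp12 region by its distance from the first Mmp12 start in kb (horizontal axis), for KLA against Veh (left) and Day4 against Day0 of osteoclast differentiation (right), coloured by antibody. Filled points are called regions, and triangles are regions with 0 tags in the KLA group, drawn at the bound of their fold; right of 5 kb every KLA point lies below 0, and at Day4 the p300 points there lie below 0 and most ERK1 points above it.

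Mmp14, the membrane-bound activator of other metalloproteinases, gained at its promoter and at its downstream flank. At 11.1 kb past the start p65 rose from 46.4 and 58.7 to 560.3 and 616 (log2 fold change 3.48, SE 0.21, adjusted p = 8.52e-07) and p300 from 123.5 and 88.7 to 417 and 382 (1.91, SE 0.17, adjusted p = 7.53e-08), both stable. Fosl2 (29.6 and 49.3 to 186 and 482, 3.07, SE 0.75), PGC1b (15.9 and 28.4 to 84.1 and 58.3, 1.65, SE 0.37) and ERK1 (53.5 and 30.1 to 105.7 and 130.7, 1.52, SE 0.39, adjusted p = 0.0284) were called higher. These 3 calls were lost without single libraries: that of Fosl2 without either Veh library (also with the replicate block), that of PGC1b without Veh replicate 1, and that of ERK1 without Veh replicate 2 or either KLA library. It was the only member region that ERK1 gained. NCoR (105.2 and 162.4 to 185.5 and 231, 0.64), HDAC3 (154.2 and 128.8 to 182.3 and 226.5, 0.52) and PU.1 (206.9 and 224.1 to 281.3 and 291.9, 0.42) were higher in both KLA libraries than in both Veh libraries by less than 2-fold.

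The Mmp14 promoter held few tags with Veh. p65 rose from 3.5 and 4.66 to 50.1 and 67.0 (log2 fold change 3.82, SE 0.51, adjusted p = 9.49e-05), p300 from 5.64 and 5.26 to 44.0 and 31.9 (2.78, SE 0.46) and PGC1b from 7.05 and 9.76 to 48.1 and 33.8 (2.24, SE 0.45), all stable. PGC1b repeated this in the set with DMSO, from 4.06 and 7.29 to 79.0 and 105.7 (4.07, SE 0.60, adjusted p = 3.3e-05). NCoR at the promoter went from 0 and 9.42 to 31.6 and 36.7 (2.82, SE 0.78, adjusted p = 0.013), a call lost with DESeq2 and without either KLA library. Corepressor, coactivator and acetyltransferase were thus all higher at the Mmp14 promoter with KLA. In the first intron of Mmp14, 2.1 kb past the start, p65 was called higher (49.9 and 42.0 to 171.6 and 212.1, 2.06, SE 0.25; 0.82 and not called with TMM or DESeq2), while NCoR (164.9 and 214.2 to 147.4 and 155.6, -0.32), HDAC3 (210.2 and 209.6 to 145.9 and 216, -0.23) and PU.1 (66.7 and 64.1 to 73.3 and 80.9, 0.24) were not called.

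Mmp19, a secreted metalloproteinase, had its main region 11.3 kb upstream and changed little. NCoR (182.8 and 175.4 to 169.3 and 148.0, log2 fold change -0.18), HDAC3 (162.2 and 163.1 to 141.2 and 258.2, 0.27), PU.1 (233.7 and 237.8 to 189.7 and 196.3, -0.29) and p300 (75.2 and 90.0 to 116.1 and 136.7, 0.61) stayed within 2-fold. p65 was called higher there (28.9 and 25.2 to 115.5 and 99.2, 1.98, SE 0.31), but not with TMM (0.76) or DESeq2. HDAC3 rose at a neighbouring region 12.0 kb upstream (8.73 and 3.87 to 28.7 and 49.2, 2.60, SE 0.63, adjusted p = 0.000223), a call lost without Veh replicate 2.

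Adam17, the TNF-releasing sheddase, gained at intron 6, 26.5 kb past its start. p65 rose from 13.1 and 15.9 to 96.2 and 82.1 (log2 fold change 2.62, SE 0.36, adjusted p = 0.000112) and PU.1 from 53.3 and 64.1 to 142.0 and 130.6 (1.22, SE 0.14, adjusted p = 8.27e-14), both stable, and this was the only member region that gained PU.1 by more than 2-fold. HDAC3 (17.5 and 10.5 to 69.8 and 61.5, 2.25, SE 0.47; lost without Veh replicate 2) and PGC1b (14.1 and 16.3 to 43.7 and 36.0, 1.37, SE 0.41; lost without either Veh library) were called higher, and NCoR (34.7 and 14.1 to 43.7 and 49.8, 0.94) was not. In intron 1, 3.2 kb past the start, p65 rose from 70.0 and 75.5 to 349 and 337 (2.24, SE 0.20, stable) and p300 from 96.5 and 103.8 to 234.8 and 229.1 (1.21, SE 0.16; 0.69 and not called with TMM or DESeq2). The Adam17 promoter showed no call for any antibody, with log2 fold changes from -0.70 (HDAC3) to -0.11 (NCoR); with TMM p65 there was -1.51 and called lower.

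At Adam8 only PU.1 gave calls: it fell at the promoter, 342 bp upstream, from 118.9 and 132.6 to 21.6 and 25.5 (log2 fold change -2.41, SE 0.18, adjusted p = 4.59e-25) and in an intron 1.4 kb past the start from 36.2 and 47.3 to 8.51 and 13.4 (-1.91, SE 0.26), both stable. p300 at the Adam8 promoter was 45.8 and 36.8 with Veh and 29.7 and 21.1 with KLA (-0.70, adjusted p = 0.0788; -1.22 and called with TMM). A PGC1b region 2.3 kb upstream showed no change past the spread (76.4 and 82.3 with Veh, 78.6 and 74.9 with KLA, -0.05).

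The 3 inhibitors went different ways. Timp1, which lies in an intron of Syn1 on the other strand, gained 1.8 kb upstream: NCoR from 17.9 and 3.53 to 71.3 and 56.0 (log2 fold change 2.56, SE 0.55, adjusted p = 0.00369) and p300 from 1.88 and 3.94 to 34.3 and 32.4 (3.5, SE 0.54, adjusted p = 3.98e-05), both stable. HDAC3 rose there from 7.28 and 4.42 to 29.3 and 40.4 (2.55, SE 0.65), a call lost without Veh replicate 2. At the Timp1 promoter p300 was at 0 and 0 with Veh and at 17.9 and 15.7 with KLA, at least 17.5-fold higher, in a region listed only through KLA. No p65, PU.1, Fosl2, PGC1b or ERK1 region was assigned to Timp1.

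Timp2 lost binding at its first intron, 1.7 kb past the start. NCoR fell from 40.6 and 48.3 to 6.48 and 7.61 (log2 fold change -2.63, SE 0.48, adjusted p = 0.00156) and PU.1 from 111.2 and 106.4 to 23.6 and 20.4 (-2.31, SE 0.19, adjusted p = 5.53e-22), both stable, and p65 fell from 35.9 and 21.4 to 4.01 and 7.53 (-2.30, SE 0.59), a call lost without either KLA library. PU.1 also fell 5.4 kb upstream (124.6 and 131.9 to 56.3 and 36.3, -1.47, SE 0.16, stable). p300 at the Timp2 promoter was 32.6 and 35.5 with Veh and 20.5 and 14.1 with KLA (-0.97, adjusted p = 0.0348, just under 2-fold; -1.5 and called with TMM). Both KLA libraries lay below both Veh libraries in all of these. At Timp3, inside Syn3, NCoR (29.9 and 29.4 to 10.5 and 8.99, -1.60, SE 0.48; lost with the replicate block and without either KLA library) and PU.1 (69.3 and 61.0 to 26.8 and 21, -1.45, SE 0.22, stable) fell 57.6 kb upstream. p300 at 49.3 kb upstream was at 0 and 0 with Veh and at 21.5 and 15.7 with KLA, at least 19.4-fold higher, in a region listed only through KLA. These Timp3 regions lie far from the start, and which gene they act on was not tested.

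H3K27ac was measured in windows of 1 kb in the tables with RGFP966 and with the PGC1b alleles, which share the same windows, and in regions with a median length of 290 bp in the NCoR table, so no level is set across these. In PGC1b flox/flox cells with Veh the highest window of each gene followed the order Timp2 (541 and 570.2 tags per 10 M), Mmp12 (462 and 461), Adam17 (253 and 297) and Adam8 (256 and 263), Mmp19 (140.3 and 151.7), Mmp13 (66.2 and 53.3), then Mmp8 (14 and 6.93) and Mmp14 (8.42 and 8.31). The ranges of Adam17 and Adam8 overlapped, as did those of Mmp8 and Mmp14. With KLA the order was Adam17 (547 and 550.2), Timp2 (540.1 and 509.9), Mmp14 (285 and 291), Mmp12 (228 and 260), Mmp19 (148 and 160.0), Adam8 (119 and 124), Mmp13 (72.9 and 86.2) and Mmp8 (9.80 and 6.20). Mmp14 was last but for Timp3 with Veh and stood above Mmp12 with KLA. Both Timp3 windows were under the filter of 16 tags in a library and were not tested, and Timp1 had no H3K27ac region in any table. The study describes 1 kb windows placed on open chromatin of Veh cells, so a site opened only by KLA may have no window. None lay at the upstream sites of Mmp13 and Mmp8 where p65, NCoR and p300 rose together.

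The Mmp14 window lay in its first intron, 2.1 kb past the start, and rose with KLA in every genotype and solvent. It went from 14.1 and 27 to 395 and 347 with DMSO (log2 fold change 4.18, SE 0.27, adjusted p = 5.11e-52), from 8.42 and 8.31 to 285 and 291 in PGC1b flox/flox cells (5.09, SE 0.22, adjusted p = 3.72e-97) and from 10.6 and 8.62 to 159 and 149.8 in PGC1b flox/flox LysMCre cells (3.99, SE 0.24, adjusted p = 5.67e-57). In NCoR flox/flox cells it went from 13.9 and 12.7 to 70.4 and 104.8 (2.71, SE 0.34, adjusted p = 3.35e-08) and in NKO cells from 3.69 and 12.8 to 58.4 and 55.6 (2.71, SE 0.37, adjusted p = 5.59e-07). All 5 were stable calls with no overlap of the groups. It was the only member region called in the NCoR table: 1 of 10 tested was higher and none lower in the flox/flox cells, against 6.49% and 3.72% of all regions, and 1 of 10 and none in NKO cells, against 2.75% and 7.96%.

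With DMSO, KLA lowered the mark at most other member windows: 10 of 19 were called lower and 2 higher, against 28.1% and 6.73% of all regions, and the median log2 fold change was -1.38 beside -0.42. This count covers only the listed windows, which leave out sites gained with KLA at Mmp13 and Mmp8. TMM moved the median of all regions by 0.42 and left 8 lower and 2 higher. All 5 Mmp12 windows fell, in stable calls, for example 7.5 kb upstream from 503 and 456 to 132.1 and 96.8 (-2.06, SE 0.21, adjusted p = 1.67e-21) and in the first intron from 202.7 and 218 to 62.8 and 44.6 (-1.95, SE 0.23). The Timp2 promoter fell from 121.3 and 109.0 to 42.7 and 27.8 (-1.68, SE 0.26) and the Adam8 promoter from 151.2 and 130.8 to 51.2 and 48.8 (-1.49, SE 0.25), also stable. The window 21.8 kb upstream of Mmp13 (72.3 and 68.0 to 27.2 and 26.1, -1.39) and the Mmp8 promoter (20.8 and 19.2 to 9.71 and 5.05, -1.38) were called lower but not with TMM or DESeq2 (-0.98 with TMM for both), and the Mmp8 call was also lost without DMSO_Veh replicate 1 or DMSO_KLA replicate 2. Besides Mmp14, the window in intron 1 of Adam17, 4.4 kb past its start, rose from 279.1 and 244.2 to 585 and 582 (1.16, SE 0.19, stable).

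**Figure D4:**
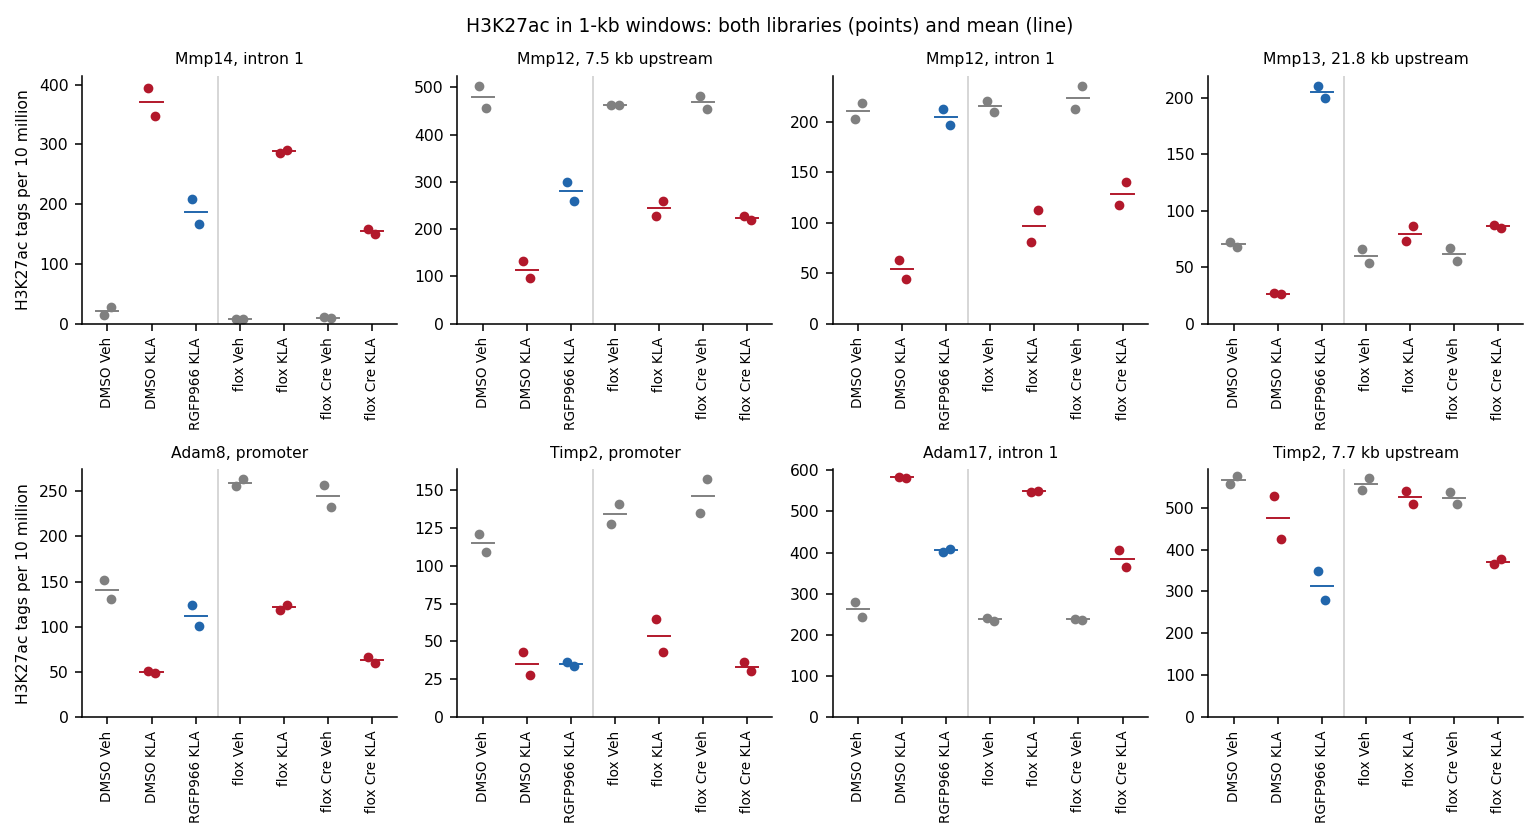
H3K27ac tags per 10 M (vertical axes, each panel on its own linear scale) in every library of the 2 tables with 1-kb windows, split by a grey line, at 8 member windows; points are single libraries, 2 per group, lines are means, and colours are grey for Veh, red for KLA and blue for RGFP966 with KLA. The Mmp14 window is at 8.31 to 27 with Veh and at 149.8 to 395 with KLA alone, and the Mmp12 and Mmp13 windows are higher with RGFP966 and KLA than with DMSO and KLA.

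In the presence of the HDAC3 inhibitor RGFP966, KLA-treated cells held more of the mark at Mmp12, Mmp13, Mmp8 and Adam8 and less at Adam17. Of 19 windows 9 were called higher and 1 lower than with DMSO_KLA, against 26.9% and 9.53% of all regions, and the medians were 0.84 and 0.39. TMM moved all regions by -0.35 and left 4 higher and 2 lower. The Mmp13 window 21.8 kb upstream, near the site where NCoR, HDAC3 and PU.1 fell with KLA, went from 27.2 and 26.1 to 210.0 and 199.8 (log2 fold change 2.94, SE 0.26, adjusted p = 1.22e-25), above the 72.3 and 68.0 of DMSO_Veh. The low DMSO_KLA level was not repeated in the PGC1b set, where KLA raised this window without a call. It went from 66.2 and 53.3 to 72.9 and 86.2 in flox/flox cells (0.40). In LysMCre cells it went from 66.7 and 55.7 to 87.4 and 84.7 (0.49). At Mmp12 the windows 13.8 kb upstream (7.12 and 3.37 to 41.5 and 34.6, 2.78, SE 0.42), 12.4 kb upstream (39.5 and 35.3 to 175.1 and 126.0, 2.00, SE 0.25) and in the first intron (62.8 and 44.6 to 212.6 and 196.5, 1.91, SE 0.23) rose in stable calls. The 2 windows about 7 kb upstream were higher by 1.28 and 1.01 but not called with TMM. The Adam8 promoter was higher too (51.2 and 48.8 to 124.4 and 100.3, 1.17, SE 0.24), with 0.83 and no call with TMM. The Mmp8 promoter went from 9.71 and 5.05 to 21.1 and 16.3 (1.29, SE 0.47, adjusted p = 0.0123; 0.96 with TMM), a call lost with TMM and DESeq2 and without DMSO_KLA replicate 2 or RGFP966_KLA replicate 1. In the other direction, the Adam17 promoter was lower (371.7 and 318.1 to 176.4 and 154.5, -1.06, SE 0.20; lost without DMSO_KLA replicate 1 or RGFP966_KLA replicate 2), and the Mmp14 window was lower by just under 2-fold (395 and 347 to 209.3 and 166.0, -0.98, SE 0.20, adjusted p = 5.37e-06; -1.33 and called with TMM). The RGFP966 comparison shares its DMSO_KLA libraries with the KLA comparison above, so a low DMSO_KLA value lowers one and raises the other. The promoters of the 7 macrophage genes summed to 3540 tags per 10 M with DMSO_KLA and 2610 with RGFP966_KLA, and the part of this in the member values was not tested.

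No member region was called between NKO and flox/flox cells by edgeR, with TMM or with DESeq2. With Veh 0 of 10 were called higher or lower (0.973% and 0.027% of all regions) and 3 had an unadjusted p under 0.05; with KLA these were 0 of 10 (0.4% and 0.389%) and 2. For the difference in the response to KLA they were 0 of 10 (0.027% and 0.67%) and 0. At the Mmp14 intron the log2 difference in response was 0.00 with an interval of -0.98 to 0.98 (adjusted p = 0.998), so a difference of up to about 2-fold either way could not be told from none. The region 12.4 kb upstream of Mmp12 was higher in NKO cells with Veh (18.9 and 5.6 against 36.1 and 34.8, 1.56, SE 0.47, adjusted p = 0.0666) and with KLA (3.77 and 11 against 14.3 and 20.8, 1.25, SE 0.53, adjusted p = 0.261), in neither case past the threshold. With no filter, or without either KLA library of the flox/flox cells, 1 member was called with Veh. The median of the members' log2 differences with Veh was 0.25, beside 0.30 over all regions.

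For PGC1b, KLA gave 2 windows higher and 5 lower of 19 in flox/flox cells, against 5.22% and 25.6% of all regions, and 1 higher and 5 lower in flox/flox LysMCre cells, against 4.18% and 32.5%. TMM, which moved all regions by 0.43 and 0.61, gave 3 higher and none lower in the first and 3 and 3 in the second. The Mmp14 window was the highest change in both. The Adam8 promoter fell from 255.8 and 263 to 118.8 and 124.1 in flox/flox cells (log2 fold change -1.09, SE 0.13; -0.67 and not called with TMM) and from 256.9 and 232.1 to 66.5 and 59.9 in LysMCre cells (-1.95, SE 0.15, stable). The Timp2 promoter fell from 127.4 and 140.6 to 64.9 and 42.8 (-1.31, SE 0.18; -0.88 and not called with TMM) and from 134.7 and 157.2 to 36.1 and 30.6 (-2.13, SE 0.20, stable). Adam17 intron 1 rose from 241.8 and 234.2 to 547 and 550.2 in flox/flox cells (1.20, SE 0.09, stable) and was 238.2 and 236.8 with Veh and 406 and 365 with KLA in LysMCre cells (0.70, SE 0.09).

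Between genotypes of the PGC1b set no member window was called. With Veh 0 of 19 were (0.107% of all regions higher and 0.29% lower) and 1 had an unadjusted p under 0.05; with KLA these were 0 of 19 (0.702% and 6.81%) and 12, and for the difference in response 0 of 19 (0.77% and 4.6%) and 9. DESeq2 and TMM called none in these 3 comparisons. With KLA the medians were -0.45 for the members and -0.38 for all regions. The promoters of the 7 macrophage genes moved with the genotype: they summed to 2950 tags per 10 M in flox/flox and 2550 in LysMCre cells with Veh, and to 3420 and 1690 with KLA. Each of the 7 was lower in LysMCre cells with KLA, among them Csf1r (318 and 146), Cd68 (351 and 158), Itgam (361 and 125) and Lyz2 (395 and 137). Lyz2 is the lysozyme gene from which LysMCre is expressed, so its promoter value goes with the Cre allele itself. With Veh Lyz2 was 424 and 247, and Itgam was 315 and 320. Of the tags with KLA, 29.93% and 30.12% lay in windows in flox/flox and 22.38% and 21.97% in LysMCre cells. The part of these in the member values was not tested. The Mmp14 window with KLA was 285 and 291 in flox/flox and 159 and 149.8 in LysMCre cells (-0.90, SE 0.14, adjusted p = 4.11e-09, under 2-fold; -0.51 with TMM). Its difference in response was -1.10 with an interval of -1.74 to -0.46 from the SE of the 2 responses, and the test of the difference gave an adjusted p of 0.0588. The differences in response at the Mmp12 windows ran from -0.22 to 0.36, without an adjusted p under 0.05. With TMM that of the first intron was 0.55, higher in LysMCre cells, with an adjusted p of 0.0343. With no limit on the fold, 7 of 19 members had a lower response in LysMCre cells at an adjusted p under 0.05 and 0 a higher one, against 16.4% and 2.1% of all windows; with TMM these were 1 and 1, against 9.27% and 4.92%. Without replicate 1 of LysMCre with KLA, 1 window was called between genotypes with KLA, and without replicate 2 of flox/flox with KLA, 1 was called for the difference in response.

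The ERK inhibitor was tested on PGC1b and NCoR. PGC1b in the solvent set had 6 members higher and none lower with KLA of 40 tested, against 16.4% and 1.23% of all regions; 3 stayed called with TMM, which moved all regions by -0.44, and 3 without replicate 2 of DMSO_Veh. The 3 stable calls were Mmp14 at its promoter (above), Mmp14 at 11.1 kb (34.9 and 16 to 128.3 and 123.6, log2 fold change 2.23, SE 0.40) and Mmp13 at 32.4 kb upstream (1.62 and 0 to 27.6 and 59.5, ratio 43.9, interval 11.6 to 372). These calls repeat, in other libraries, sites that PGC1b gained in the first set. With ERKi_KLA against DMSO_KLA 0 of 40 were called by edgeR, with library totals or TMM (0.108% of all regions higher and 0.178% lower), and 4 had an unadjusted p under 0.05. The sites that PGC1b gained at Mmp13 32.4 kb upstream and at the Mmp14 promoter were not among these. Mmp13 at 32.4 kb was 67.3 and 44.0 with the inhibitor against 27.6 and 59.5 (0.33, SE 0.60). The Mmp14 promoter was 54.8 and 44.0 against 79.0 and 105.7 (-0.91, SE 0.48, adjusted p = 0.393). The largest log2 fold change, at 21.4 kb upstream of Mmp13, was 7.90 and 20.8 with DMSO_KLA and 64.1 and 77.6 with ERKi_KLA (2.25, SE 0.66, adjusted p = 0.124), with no overlap of the libraries and no call; DESeq2 called 1 member.

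For NCoR the whole table was lower with the inhibitor. With ERKi_KLA 17 of 43 members were called lower and none higher, against 48.6% and 0.634% of all regions, and the medians were -0.98 and -1.20. TMM moved all regions by 1.16, after which 2 members were higher and none lower. Of the tags of the ERKi_KLA libraries 15% and 15.8% lay in regions, against 33.3% and 34.2% for KLA. The ERKi_KLA libraries also carry another date in their descriptions. No NCoR group was labelled with DMSO, unlike the PGC1b set, so there was no solvent control. The inhibitor, any solvent given with it, that date and the share of tags in regions cannot be told apart. In the fit with library totals the lowest p was at 11.3 kb upstream of Mmp19 (170.9 and 152.9 to 52.4 and 60.3, log2 fold change -1.52, SE 0.22, adjusted p = 0.000243; -0.35 with TMM), while the Mmp14 promoter (31.6 and 36.7 to 32.1 and 21.6, -0.35) and Mmp13 at 32.4 kb (68.0 and 59.5 to 44.0 and 16.4, -1.07, adjusted p = 0.0779) were not called. The calls at the Mmp14 flank (-1.10) and at the Mmp13 promoter (-1.13) turned to 0.06 and 0.03 with TMM. Without KLA replicate 1 or KLA replicate 2, 6 members were called.

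In osteoclast differentiation p300 rose with the table and fell at 3 Mmp12 regions, 1 inside the gene and 2 past its end. From Day0 to Day4, 10 of 21 members were called higher and 3 lower, against 62.2% and 0.248% of all regions, with medians of 1.53 and 1.84. TMM moved all regions by -1.62 and gave 1 higher and 3 lower. The share of tags in regions was 3.08% and 3.16% at Day0 and 9.53% and 9.61% at Day4 for p300, and 2.79% and 2.98% at Day0 and 4.50% and 6.46% at Day4 for ERK1. In these cells a change in the mixture of cells and a change in binding per cell cannot be told apart. The member that stayed higher with TMM was 9.9 kb upstream of Timp2: 1.76 and 0 tags per 10 M at Day0 and 96.8 and 42.0 at Day4, a ratio of 57.4 (interval 15.6 to 479), a call lost with DESeq2 and without Day4 replicate 1. The 3 that fell were all of Mmp12, at 4.3 kb past its second start (28.1 and 31.9 to 1.96 and 11.3, log2 fold change -2.19, SE 0.74), at 13.7 kb (73.8 and 63.9 to 33.3 and 21.6, -1.33, SE 0.44) and at 14.8 kb (33.4 and 17.0 to 4.89 and 6.81, -2.19, SE 0.66, adjusted p = 0.0125). TMM and DESeq2 called them lower as well, and the replicate block and the omission of either Day4 library did not.

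**Figure D5:**
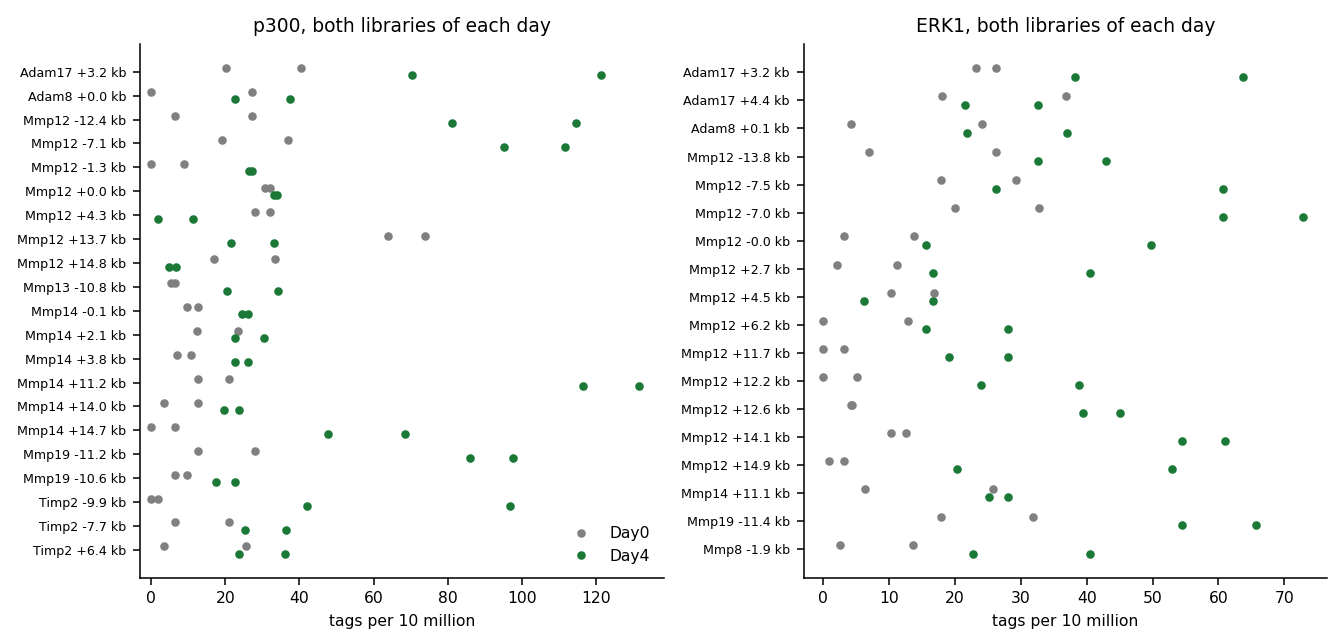
Tags per 10 M (horizontal axes, linear) of p300 (left) and ERK1 (right) at every tested member region (rows, with the distance to the annotated start in kb), 1 point per library, 2 libraries per day, grey for Day0 and green for Day4. p300 points of Day4 lie right of those of Day0 at Timp2 9.9 kb upstream and Mmp14 11.2 kb past the start, and left of them at the Mmp12 rows of 4.3, 13.7 and 14.8 kb.

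Regions of Mmp14 were among those with more p300 at Day4: the flank at 11.2 kb (21.1 and 12.8 to 116.4 and 131.6, log2 fold change 2.77, SE 0.41, adjusted p = 0.000346) and a region at 14.7 kb (0 and 6.39 to 68.5 and 47.6, ratio 31.5, interval 10.5 to 155). Both calls were lost with TMM and DESeq2. Mmp19 at 11.2 kb upstream (28.1 and 12.8 to 86.1 and 97.6, 2.04, SE 0.44), Adam17 at 3.2 kb (20.2 and 40.5 to 70.4 and 121.4, 1.75, SE 0.46) and Mmp12 at 12.4 kb upstream (27.3 and 6.39 to 81.2 and 114.6, 2.33, SE 0.51) rose as well, with TMM values of 0.42, 0.14 and 0.71, and these 3 calls were lost with TMM, DESeq2 and without Day4 replicate 2. ERK1 was called higher at 3 of 18 members and lower at none, against 2.33% and 0.0267% of all regions, with medians of 1.5 and 1.00. All 3 were Mmp12 regions, at 12.6 kb (4.30 and 4.20 to 45.1 and 39.4, 3.27, SE 0.72), 14.1 kb (10.3 and 12.6 to 54.5 and 60.9, 2.32, SE 0.62) and 14.9 kb past the second start (0.861 and 3.15 to 52.9 and 20.3, 4.14, SE 0.91). All 3 calls were lost with TMM, with DESeq2 and without either Day4 library, and that at 14.1 kb also without either Day0 library. TMM, which moved all regions by -0.96, called no member and 0 regions of the whole table. Without replicate 1 or 2 of Day0, 7 and 5 members were called for ERK1, and without either Day4 library none; replicate 2 of ERK1 at Day4 carries a higher replicate number and another date in its description. The libraries of p300 gave 5 called members without Day4 replicate 1 and 4 without Day4 replicate 2.

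The osteoclast genes Acp5 (5 of 5 regions), Mmp9 (6 of 6), Ctsk (7 of 10), Dcstamp (4 of 5), Nfatc1 (4 of 6), Ocstamp (2 of 3) and Calcr (1 of 1) had p300 regions called higher at Day4 and none lower. That makes 29 of 36, beside the 62.2% of all p300 regions called higher (8.8% with TMM), and for ERK1 0 of 14 were called, beside 2.33%. The promoters of 3 of these genes summed to 31.9 tags of p300 per 10 M at Day0 and 130 at Day4, and those of 6 macrophage genes to 327 and 475. Among 36 other genes of matrix proteolysis (other metalloproteinases, ADAM and ADAMTS genes, inhibitors and activators such as Furin and Plau), KLA gave 26 NCoR regions higher and 9 lower of 98 tested, beside 23.4% and 16.7% of all regions, and 30 HDAC3 regions higher and 3 lower of 87, beside 27.5% and 11.3%. p65 gave 83 higher and 1 lower of 103 (57.0% and 5.43% of all), and p300 59 higher and 4 lower of 118 (42.1% and 12.9%). PU.1 gave 5 and 5 of 79 (4.53% and 21.7%) and PGC1b 16 and 1 of 83 (16.4% and 6.35%). Fosl2 gave 3 and 1 of 66 (11.4% and 4.19%) and ERK1 3 and 0 of 47 (10.3% and 2.53%). For NCoR and HDAC3 more of these regions were called higher than lower and more of the members lower than higher, and for PU.1 these regions split evenly while most called members were lower; the differences were not tested. With the HDAC3 inhibitor 7 of 25 H3K27ac windows of these genes were called higher and none lower, beside 26.9% and 9.53% of all, and in osteoclast differentiation 30 of 45 p300 regions were higher and none lower, again near the 62.2% of all.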

How the data were processed

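ChIP-seq tags were counted by the authors in merged peak regions: reads were mapped to mm10 with Bowtie2, peaks were called and annotated with HOMER, and the deposited tables hold raw counts per region and library, with the total tags of each library in the header. The versions of these tools are not given in the sources used here. H3K27ac tags were deposited as raw counts too, in regions set by other peaks. The 30 input samples were not analysed.

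From these counts, edgeR 4.0.16 (R 4.3.3, quasi-likelihood test, Benjamini-Hochberg adjustment over all regions of a table, library totals as library sizes) was fitted on all groups of each table, for 25 comparisons. The NF-κB, AP-1, PU.1 and GAAA patterns were searched with Python 3.11.15 in mm10 sequence, which was checked against the files on 21 chromosomes. A region needed at least 4 tags in 1 library (16 for H3K27ac). A call needed an adjusted p under 0.05 and more than a 2-fold change. SE is the absolute log2 fold change over the square root of F. Alternatives were TMM scaling, DESeq2 1.42.0, no filter, the replicate number as a block, and each library left out. The precision of a value follows from its tags: a region of few tags per library has a wide counting interval, and intervals and floors cover counting error only.

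The members and the gene lists were chosen with earlier results of these data known. Regions named by rule were those within 1000 bp of a start, the region of each gene with the most tags per 10 M in each table, and the called region with the lowest p in each direction of each comparison. Other regions were described outside these rules, such as the Mmp8 upstream site and Timp2 intron 1, both with called changes. Their choice was not blind to the values. Regions of different tables were set side by side where their centres lay within 500 bp. Scripts were tested on simulated data. Replicate numbers did not pair the libraries (31 correlations of deviations from -0.026 to 0.021), and no 2 libraries were identical. The sequence of 1 region is not reported here.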

Additional observations from a re-analysis of the deposited data

Results flagged for a closer look

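The response of H3K27ac to KLA differed between PGC1b flox/flox LysMCre and PGC1b flox/flox cells at 7 of the 19 tested windows by the interaction term of edgeR (Benjamini-Hochberg adjusted over all windows), in each case lower in the LysMCre cells and by less than 2-fold. Of all windows 16.4% had a lower response by the same criterion and 2.1% a higher one, and the median of this term over all windows was -0.18. The promoters of the 7 macrophage genes also fell, from a sum of 3420 tags per 10 M in flox/flox cells with KLA to 1690 in LysMCre cells with KLA (2950 and 2550 with Veh). Lyz2, from which LysMCre is expressed, is 1 of them. Of the tags with KLA, 29.93% and 30.12% lay in windows in flox/flox and 22.38% and 21.97% in LysMCre cells. With Veh these were 35.81% and 35.87% in flox/flox and 31.65% and 30.9% in LysMCre cells. The part of these in the differences was not tested. At Adam8 the log2 difference was -0.86 at the promoter, 7 bp upstream (responses of -1.95 and -1.09, SE of the difference 0.20, adjusted p = 0.000232), and -0.73 at the overlapping window 327 bp upstream (adjusted p = 0.0255). At Timp2 it was -0.82 at the promoter (-2.13 and -1.31, adjusted p = 0.0222) and -0.42 and -0.39 at the overlapping windows 7.7 and 8.0 kb upstream (adjusted p = 0.00114 and 0.00871). At Adam17 it was -0.51 in intron 1 (0.70 and 1.20, adjusted p = 0.000859) and -0.46 at the promoter (adjusted p = 0.00371). With TMM, which moved the median of all windows by 0.19 for this term, the Adam8 promoter kept an adjusted p under 0.05 (-0.67, adjusted p = 0.00896), and the other 6 had adjusted p of 0.0621 to 0.272. The Mmp12 first intron then passed in the other direction, higher in LysMCre cells (0.55, adjusted p = 0.0343, against 0.36 and 0.197 with library totals). Each group had 2 libraries, so these are differences between pairs of libraries.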

How the results depend on the processing

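Over the 25 comparisons the count of called members stayed within 1.5 times under TMM in 19, DESeq2 in 17, no filter in 24 and the replicate block in 22. With TMM it was 3 of the 6 for PGC1b with DMSO_KLA, 2 for NCoR with ERKi_KLA (17), 0 for ERK1 at Day4 (3), 4 for p300 at Day4 (13), 6 for RGFP966 (10) and 3 for KLA in PGC1b flox/flox cells (7). With DESeq2 these were 3, 4, 0, 3, 6 and 3, and it gave 2 for ERK1 with KLA (1) and 1 for PGC1b with ERKi_KLA (0). No filter gave 1 for NKO against flox/flox with Veh (0). The replicate block, of which the numbers showed no pairing, gave 1 for Fosl2 (6), 2 for ERK1 with KLA (1) and 7 for p300 at Day4 (13). The causes were not tested.

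Leaving out 1 library at a time, the counts ran from 8 to 21 for NCoR, 5 to 15 for HDAC3, 9 to 20 for p65, 0 to 13 for Fosl2, 3 to 16 for PGC1b, 0 to 1 for ERK1 and 17 to 25 for p300 with KLA, 3 to 6 for PGC1b with DMSO_KLA, 6 to 19 for NCoR with ERKi_KLA, 0 to 7 for ERK1 and 4 to 17 for p300 at Day4. For H3K27ac they ran from 0 to 1 for NKO against flox/flox with Veh, for PGC1b genotypes with KLA and for the PGC1b difference in response. In 124 of 150 such fits the count stayed within 1.5 times.

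Of the 178 calls, TMM kept 114 and turned 4, DESeq2 turned 3. The p65 value of Mmp12 12.4 kb upstream went from 1.21 to -0.02 with TMM, that of Adam17 4.4 kb past the start from 1.21 to -0.05 with TMM and -0.02 with DESeq2. The NCoR values with ERKi_KLA at Mmp14 11.1 kb and at the Mmp13 promoter went from -1.10 and -1.13 to 0.06 and 0.03 with TMM and to 0.08 and 0.05 with DESeq2. Library totals of 4.30 to 21.5 M tags limit regions of few tags.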
